A study of Mus musculus with 4 samples.

Results

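Genes of the Wnt pathway were measured by RNA sequencing of hippocampus from mice of the inbred strain C57BL/6, aged 11 to 12 weeks. The 2 ATO libraries came from mice labelled as exposed during development to ATO at 5000 ppb, and the 2 control libraries came from untreated mice. The labels do not spell out ATO, and the series title speaks of arsenic and of offspring; how the dose was given, the litters and whether animals were pooled are not stated. Members were chosen by gene symbol, with earlier results of these data known, and 48 of the 15713 genes in the deposited table qualified. They were 10 Wnt ligands, 2 genes of ligand secretion and 5 genes of the secreted antagonist families Sfrp and Dkk. Also included were 7 genes of the R-spondin system, 12 receptors and co-receptors and the frizzled-related membrane protein gene Mfrp. The remainder were 7 intracellular components and 4 TCF/LEF transcription factors. Symbols of the same families without a row, among them Dkk1, Wif1 and Ror2, are not analysed here.

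Wnt proteins are lipid-modified signals that bind Frizzled receptors together with the co-receptors LRP5 or LRP6. In the canonical branch this halts the destruction of β-catenin, which then acts on target genes with TCF/LEF factors. R-spondins raise the number of Frizzled receptors at the cell surface, while secreted Frizzled-related proteins (SFRP) bind Wnt ligands outside the cell. In the hippocampus the pathway is known for the development of the dentate gyrus, adult neurogenesis and synapse maintenance.

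Library totals lay between 14832214 and 17251032 counts. The list of hippocampal excitatory neuron markers, which included Prox1 and Wfs1, was counted in all 4 libraries without a 0. Its summed level was 2799 and 3001 CPM (read counts scaled to a common library total) in the ATO libraries, against 2984 and 2955 CPM in the controls. Nrgn alone made up 1444 and 1550 CPM of this in ATO and 1514 and 1499 CPM in control. The sum therefore says little about the other markers, some of which were higher and some lower in ATO. Markers of the choroid plexus, which makes cerebrospinal fluid in the brain ventricles, separated the groups: all 20 rose in ATO, and their summed level was 3398 and 4239 CPM in ATO against 174 and 241 CPM in control. Genes enter the deposited table by exceeding 1 CPM in at least 2 libraries. Of the 20 markers 11 exceeded it only in ATO and so had to differ to be listed, while 7 exceeded it in both controls as well. In bulk tissue, more cells of a type and more RNA per cell cannot be told apart.

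Of the 48 Wnt genes, 5 rose and 1 fell in the ATO hippocampus. The frizzled-related gene Mfrp, the antagonist genes Sfrp5 and Sfrp1 and the receptor genes Fzd4 and Fzd7 were higher, and the ligand gene Wnt9a was lower. The genes of the intracellular relay, among them β-catenin (Ctnnb1), did not pass. Among all genes 2.87% rose and 0.859% fell (edgeR's quasi-likelihood test, Benjamini-Hochberg adjusted p under 0.05), so that 5 of 48 (10.4%) and 1 of 48 (2.08%) compare with these shares. Members with an unadjusted p under 0.05 numbered 14, 8 higher and 6 lower, or 29.2% against 18.1% of all genes. Both ATO libraries lay above both controls for 13 members and below both for 13 others, 27.1% each, against 24.8% and 23.4% of all genes. The median log2 fold change of the members was 0.02, and that of all genes was -0.005. Sfrp5 exceeded 1 CPM only in the ATO libraries and so had to differ to be listed at all; 45 of the 48 members exceeded it in every library.

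**Figure D1:**
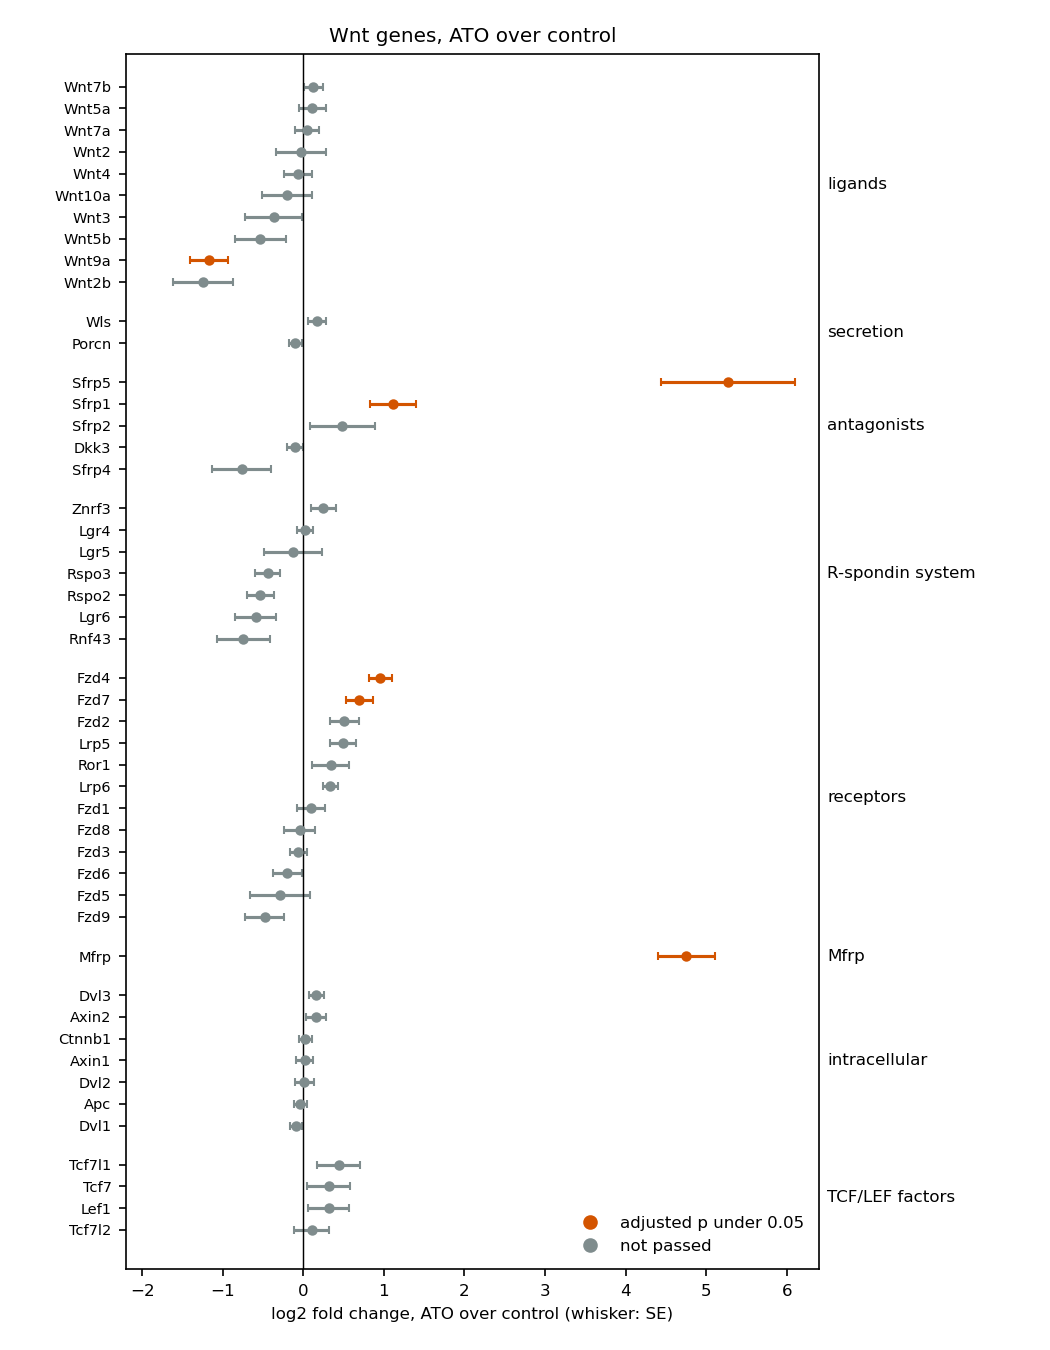
Log2 fold change of each of the 48 Wnt genes in ATO over control, grouped by role, with the SE as whisker; orange points passed an adjusted p of 0.05. The 5 genes that rose include Mfrp at 4.75 and Sfrp5 at 5.27, far from the rest, and Wnt9a at -1.17 is the gene that fell.

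Levels per gene length, taken from the deposited FPKM, spanned a wide range. The highest was Dkk3, a secreted protein of the Dickkopf family that neurons express, at 98.9 and 123 FPKM in ATO and 112 and 126 FPKM in control. Ctnnb1 followed at 77.6 and 75.9 FPKM in ATO and 70.1 and 80.2 FPKM in control. Only 6 members averaged 10 FPKM or more over the 4 libraries, the others being Porcn, Dvl1, Apc and Wnt7b, while 14 averaged under 1 FPKM. The lowest were Fzd5 and Lgr5, with means of 0.202 and 0.150 FPKM. In the order of means, 8 of the 47 neighbouring pairs had ranges over the 4 libraries that did not overlap. The genes that passed the test stood in this order at ranks 20 (Fzd7), 21 (Mfrp), 24 (Fzd4), 25 (Wnt9a), 33 (Sfrp1) and 44 (Sfrp5).

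**Figure D2:**
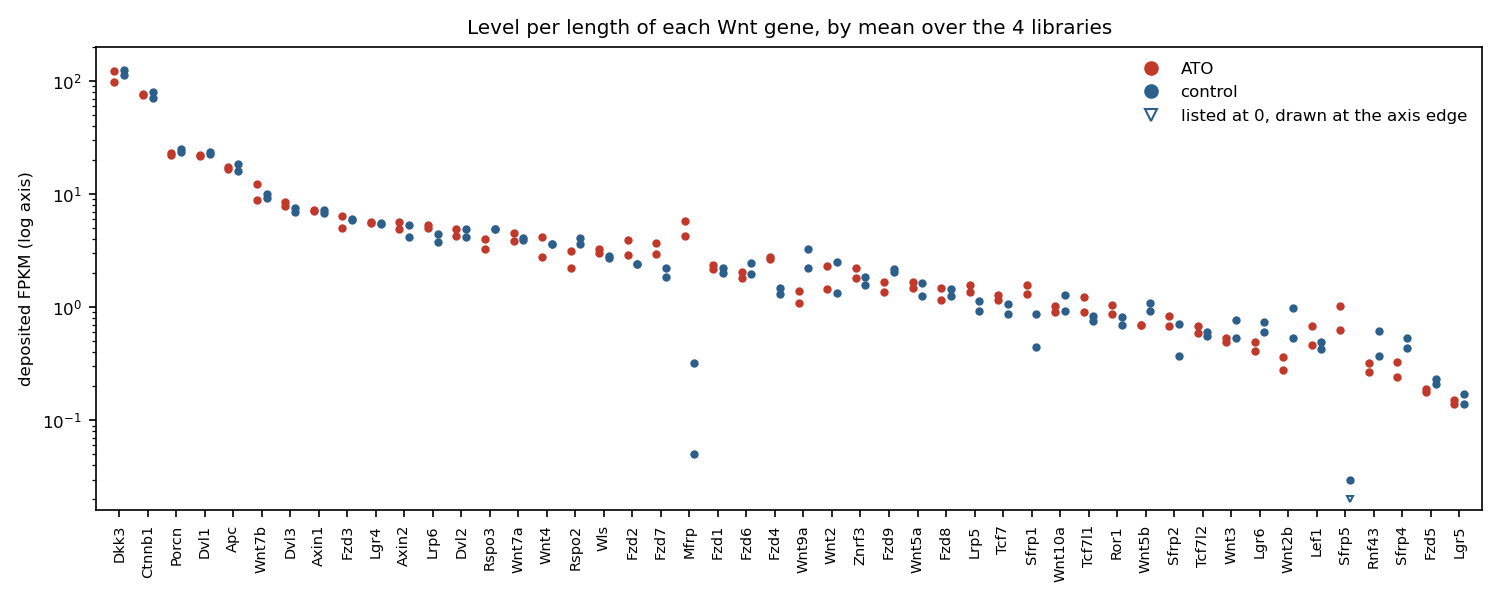
Deposited FPKM of the 48 Wnt genes on a log axis, ordered by the mean over the 4 libraries, with each ATO and control library as a point and a value listed at 0 at the axis edge. Dkk3 stands highest with a mean of 115 FPKM, and the groups part most visibly at Mfrp and Sfrp5.

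Mfrp encodes a membrane protein with a cysteine-rich domain like that of the Frizzled receptors, and its gene is known in the eye. It lies on the plus strand of chromosome 9 from 44101729 to 44109187 (GRCm38). Its counts were 319 and 423 in the ATO libraries, against 3 and 21 in the controls. Both ATO libraries were far above both controls, and the controls also lay far apart. Mfrp averaged 21.9 ± 5.06 CPM in ATO and 0.797 ± 0.839 CPM in control (mean ± SD, n = 2 per group). The log2 value was 4.75 ± 0.36 (SE), with edgeR's adjusted p at 1.12e-06. The ratio of the summed counts after division by depth was 27.1, with an exact binomial 95% interval from 18.1 to 42.6 that covers counting error only. The size depended on the controls: leaving out control replicate 1 gave a log2 value of 3.97 and leaving out control replicate 2 gave 6.69. The gene passed in all 10 alternative fits. The annotation places C1qtnf5, which is not analysed here, on the same strand within Mfrp, and Rnf26 on the opposite strand. Rnf26 had 108 and 155 counts in ATO and 132 and 121 in control (log2 fold change -0.13 ± 0.21, adjusted p = 0.802 in edgeR).

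Of the 4 SFRP genes 2 rose, Sfrp5 and Sfrp1, and 2 did not pass. Sfrp5 (chromosome 19 from 42197971 to 42202252, minus strand) had 34 and 20 counts in ATO, against 0 and 1 in control. The ratio of summed counts was 47.4, and with 1 control count its exact binomial 95% interval ran from 8.15 to 1905. Its normalised level was 1.95 and 1.20 CPM in ATO and 0 and 0.0662 CPM in control. On this scale 3 counts in control replicate 1 would be 0.203 CPM. The fitted log2 fold change of 5.27 ± 0.83 (adjusted p = 0.00213, edgeR) depends on the prior count of the fit. It was 4.43 without control replicate 1 and 7.69 without control replicate 2, where the remaining control has no count. Sfrp5 exceeded 1 CPM only in the ATO libraries, so it had to differ to be listed. That it passed in all 9 alternative fits that kept it therefore adds no support.

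Sfrp1 (chromosome 8 from 23411502 to 23449632, plus strand) had 5.68 and 6.92 CPM in ATO, against 1.97 and 3.84 CPM in control. The groups did not overlap, but control replicate 2 lay as far from control replicate 1 as from ATO replicate 1. It rose 2.16-fold (log2 1.11 ± 0.29, adjusted p = 0.0468, edgeR). Leaving out control replicate 1 (log2 0.71, adjusted p = 0.176) or ATO replicate 2 (0.96, adjusted p = 0.101) ended this call. So did scaling by library size only (adjusted p = 0.0545) and DESeq2 (adjusted p = 0.110). Over 9 alternatives the adjusted p ran from 0.00480 to 0.176. The log2 value was 1.67 without control replicate 2. Sfrp2 had 1.78 and 1.51 CPM in ATO and 0.814 and 1.52 CPM in control. Sfrp4 was below both controls, with 1.38 and 1.02 CPM in ATO and 2.24 and 1.85 CPM in control (log2 -0.76 ± 0.37, adjusted p = 0.294). Dkk3 had 329.9 and 417 CPM in ATO and 381 and 422 CPM in control, a log2 fold change of -0.10 ± 0.10 (adjusted p = 0.638). Per length, the 4 SFRP genes together came to 3.50 and 3.13 FPKM in ATO and 1.35 and 2.06 FPKM in control. Sfrp5 made up 29.4% and 20.1% of that sum in ATO, against 0% and 1.46% in control. The share of Sfrp4 in the sum was 9.43% and 7.67% in ATO and 39.3% and 21.4% in control.

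**Figure D3:**
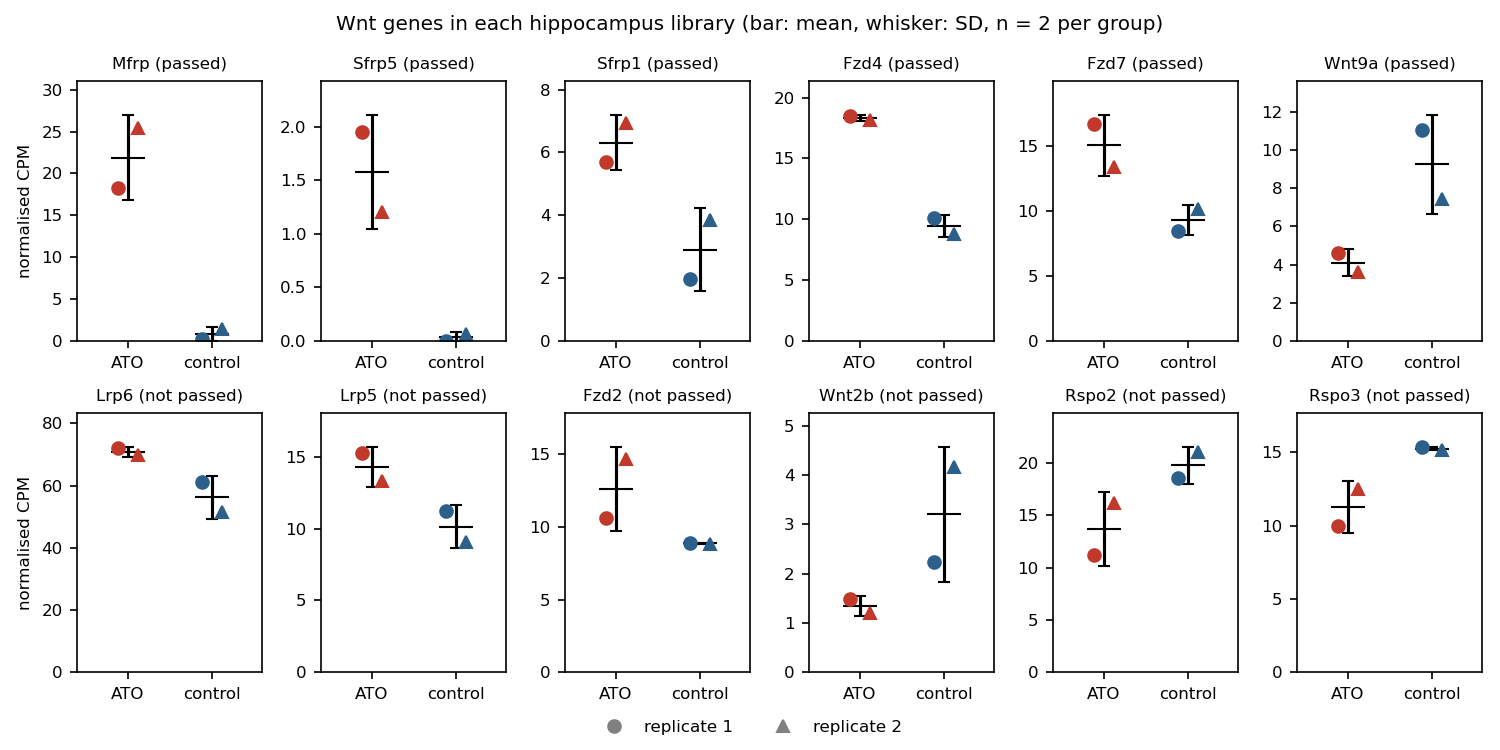
Normalised CPM of 12 Wnt genes in each library, with ATO left of control, the mean as a bar and the SD as whisker (n = 2 per group). The upper row holds the 6 genes that passed, and the lower row 6 that did not, such as Lrp6 at 70.9 ± 1.57 CPM in ATO and 56.3 ± 6.88 CPM in control.

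Of the 9 Frizzled receptor genes 2 rose and 7 did not pass. Fzd4 encodes a receptor that also binds the non-Wnt ligand Norrin, the signal that builds the blood vessels of the retina. It had 18.5 and 18.2 CPM in ATO, against 10.1 and 8.81 CPM in control, so that the libraries of each group lay close together. The rise was 1.94-fold (chromosome 7 from 89404355 to 89413134, plus strand; log2 0.96 ± 0.15, adjusted p = 0.00158, edgeR). The call held in all 10 alternative fits, with log2 values from 0.85 to 1.06. Fzd7 (chromosome 1 from 59482424 to 59486955, plus strand), a receptor known from stem cells, had 16.7 and 13.4 CPM in ATO and 8.48 and 10.1 CPM in control. Its rise of 1.62-fold (log2 0.70 ± 0.17, adjusted p = 0.0355, edgeR) was the less secure. With control replicate 1, control replicate 2 or ATO replicate 1 left out the adjusted p was 0.131, 0.0817 and 0.257 in that order, and DESeq2 gave 0.0905, in a range from 0.00359 to 0.257 over 10 alternatives.

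Fzd2 had 10.6 and 14.6 CPM in ATO, against 8.89 and 8.81 CPM in control (log2 0.51 ± 0.18, adjusted p = 0.152). Both ATO libraries were above the controls, but ATO replicate 2 carried most of the difference. Without ATO replicate 1 the adjusted p was 0.0405, with a log2 value of 0.73, and over 10 alternatives it ran from 0.0405 to 0.709. Fzd3, the most abundant Frizzled gene and a receptor of axon guidance and planar cell polarity, had 82.1 and 64.7 CPM in ATO and 75.8 and 77.3 CPM in control (log2 -0.06 ± 0.10, adjusted p = 0.811). Fzd9, with 3.10 and 3.91 CPM in ATO and 4.75 and 5.03 CPM in control, had the lowest log2 value of the family at -0.48 ± 0.25 (adjusted p = 0.326). The log2 values of Fzd1, Fzd5, Fzd6 and Fzd8 lay between -0.28 and 0.10. As shares of the summed Frizzled FPKM, Fzd4 and Fzd7 together took 28.0% and 25.8% in ATO, against 16.9% and 17.9% in control. The share of Fzd3 was 27.9% and 23.0% in ATO and 29.6% and 30.4% in control. The sum itself was 23.1 and 21.8 FPKM in ATO and 19.9 and 19.8 FPKM in control.

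**Figure D4:**
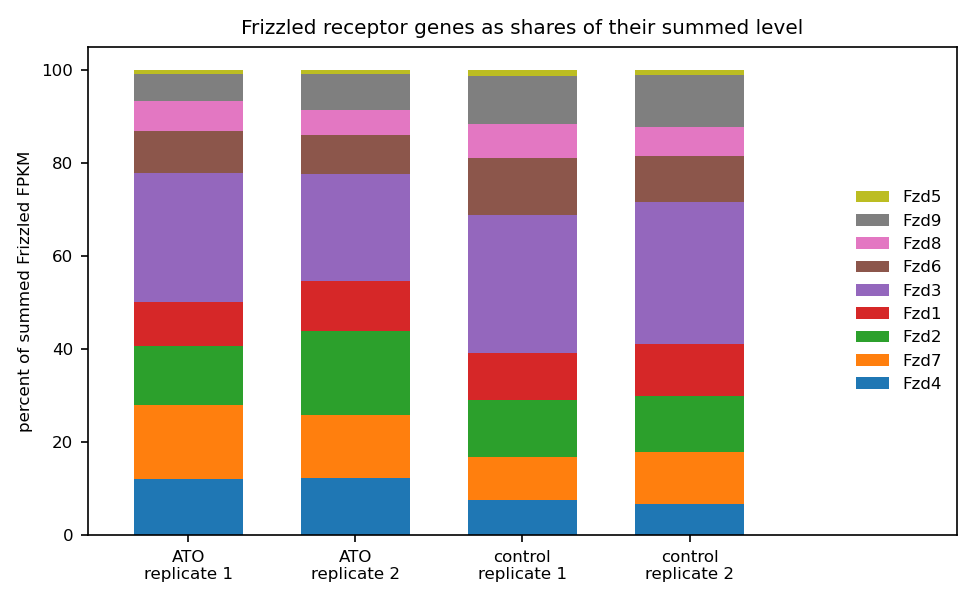
Share of each of the 9 Frizzled genes in their summed FPKM, in percent, for the 2 ATO and the 2 control libraries. Fzd4 (lowest segment) took 12.0% and 12.3% in ATO, against 7.51% and 6.61% in control.

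The co-receptor genes Lrp6 and Lrp5 stood higher in both ATO libraries without passing. Lrp6, the main canonical co-receptor, had 72.0 and 69.8 CPM in ATO and 61.1 and 51.4 CPM in control (log2 0.33 ± 0.09, adjusted p = 0.0636). It passed without control replicate 1 (log2 0.47, adjusted p = 0.0259); over 10 alternatives the adjusted p ran from 0.00913 to 0.320. Lrp5, which also pairs with Fzd4 in Norrin signalling, had 15.3 and 13.3 CPM in ATO and 11.2 and 9.07 CPM in control (log2 0.50 ± 0.16, adjusted p = 0.113). Ror1, a receptor tyrosine kinase of the non-canonical branch that binds Wnt5a, had 5.05 and 6.08 CPM in ATO and 4.75 and 4.04 CPM in control (log2 0.34 ± 0.23, adjusted p = 0.476). Of the 12 receptor and co-receptor genes, 6 had both ATO libraries above both controls and 2 had both below, against 24.8% and 23.4% of all genes. Beside these receptor values, 12 brain endothelial markers summed to 495 and 477 CPM in ATO and 492 and 412 CPM in control. Of these markers 1 rose, the glucose transporter gene Slc2a1 (log2 0.68 ± 0.08, adjusted p = 0.000241), and 0 fell (edgeR). Slc2a1 alone gave 136 and 128 CPM of the sum in ATO and 87.5 and 77.0 CPM in control. In edgeR 5 of the 12 had an unadjusted p under 0.05, 2 higher and 3 lower, against 18.1% of all genes. The lower ones included Tek and Slco1a4, both at log2 -0.50 ± 0.14 (adjusted p = 0.0681 and 0.0625, edgeR). The tight junction gene Cldn5 had a log2 fold change of -0.22 ± 0.10 (adjusted p = 0.275). Any part of these cells in the receptor values was not tested.

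Of the 10 ligand genes 1 fell and 9 did not pass. Wnt9a (chromosome 11 from 59306928 to 59333552, plus strand), a ligand known from joint formation and blood stem cell development, had 80 and 60 counts in ATO, against 163 and 112 in control. Both ATO libraries were below both controls, at 4.59 and 3.61 CPM in ATO and 11.1 and 7.42 CPM in control. It was 2.24-fold lower in ATO (log2 -1.17 ± 0.24, adjusted p = 0.0147, edgeR), and the ratio of summed counts was 0.446 with an exact binomial 95% interval from 0.362 to 0.549. Without control replicate 1 the log2 value was -0.85 and the adjusted p 0.105; the other 9 alternatives kept the call, and the adjusted p over all 10 ran from 0.000478 to 0.105.

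Wnt2b, a ligand of the cortical hem and of the eye margin in development, had the lowest log2 value of all members at -1.24 ± 0.37 but did not pass (adjusted p = 0.0790). Its counts were 26 and 20 in ATO, against 33 and 63 in control, so the size rested on control replicate 2. Without control replicate 2 the log2 value was -0.73 (adjusted p = 0.477), and without control replicate 1 it was -1.62 (adjusted p = 0.0415), with adjusted p from 0.0348 to 0.477 over 9 alternatives. The most abundant ligand genes showed no such separation. Wnt7b, a ligand known for dendrite growth, had 59.2 and 44.1 CPM in ATO and 46.0 and 48.7 CPM in control, and its groups overlapped (log2 0.13 ± 0.12, adjusted p = 0.634, edgeR). Wnt7a, known for synapse formation, had 14.3 and 12.3 CPM in ATO and 13.2 and 12.6 CPM in control (log2 0.04 ± 0.15, adjusted p = 0.917). The log2 values of Wnt2, Wnt3, Wnt4, Wnt5a, Wnt5b and Wnt10a lay between -0.53 and 0.11. Wnt5a, the best known non-canonical ligand, was at 13.0 and 11.7 CPM in ATO and 13.0 and 9.93 CPM in control. Together the ligand genes came to 28.0 and 22.9 FPKM in ATO and 26.6 and 27.3 FPKM in control.

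Genes that prepare the ligands did not pass. Porcn encodes the acyltransferase that attaches the lipid to Wnt proteins and had 66.6 and 70.1 CPM in ATO and 76.1 and 70.4 CPM in control (log2 -0.10 ± 0.08, adjusted p = 0.578). Wls, the carrier that takes Wnt proteins to the cell surface, had 26.5 and 28.8 CPM in ATO and 25.0 and 24.2 CPM in control (log2 0.17 ± 0.11, adjusted p = 0.450).

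In the R-spondin system 0 of 7 genes passed in edgeR, and 4 had an unadjusted p under 0.05, all with lower values in ATO. Over all genes 18.1% had such a p, 1186 of 15713 with lower values. DESeq2's Wald test passed none of these 4 either. Rspo2, which encodes an R-spondin, had 11.2 and 16.2 CPM in ATO, against 18.5 and 21.0 CPM in control (log2 -0.53 ± 0.16, adjusted p = 0.0925). Its libraries did not overlap, but ATO replicate 1 was much the lower. Without ATO replicate 2 the log2 value was -0.82 (adjusted p = 0.00225), and without ATO replicate 1 it was -0.29 (adjusted p = 0.616), the ends of the range over 10 alternatives. Rspo3 had 9.99 and 12.5 CPM in ATO and 15.3 and 15.2 CPM in control (log2 -0.44 ± 0.15, adjusted p = 0.143). The R-spondin receptor gene Lgr6 had 2.81 and 3.37 CPM in ATO and 4.21 and 5.10 CPM in control (log2 -0.59 ± 0.26, adjusted p = 0.240). Rnf43, a ubiquitin ligase that removes Frizzled receptors from the cell surface, had 2.07 and 1.81 CPM in ATO and 4.07 and 2.45 CPM in control (log2 -0.75 ± 0.33, adjusted p = 0.249). The related ligase gene Znrf3 lay the other way, with 17.5 and 14.6 CPM in ATO and 14.7 and 12.3 CPM in control, and its groups overlapped (log2 0.25 ± 0.15, adjusted p = 0.422). Lgr4, the most abundant receptor gene of this set, had 32.4 and 33.8 CPM in ATO and 32.6 CPM in both controls (log2 0.02 ± 0.10, adjusted p = 0.937).

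Within the cell, 0 of the 7 components passed in edgeR, and 0 had an unadjusted p under 0.05; DESeq2 and limma-voom also passed 0. Ctnnb1 had 399.9 and 397 CPM in ATO and 367 and 417 CPM in control, a log2 fold change of 0.02 ± 0.08 (adjusted p = 0.915). Apc, the scaffold of the destruction complex, had 276 and 268 CPM in ATO and 299.7 and 259.8 CPM in control (-0.04 ± 0.08). Dvl1, the most abundant of the Dishevelled genes, which relay the signal from Frizzled receptors, had 110.4 and 109.4 CPM in ATO and 114 and 119 CPM in control (-0.09 ± 0.08). The log2 values of Axin1, Axin2, Dvl2 and Dvl3 lay between 0.01 and 0.16, with SE from 0.09 to 0.13. The 4 TCF/LEF genes had positive log2 values, from 0.10 for Tcf7l2, whose sign turned with 1 library left out, to 0.44 for Tcf7l1, and 0 had an unadjusted p under 0.05 or passed in edgeR, DESeq2 or limma-voom. Tcf7l1, mainly a repressor of target genes, had 4.82 and 3.61 CPM in ATO and 2.98 and 3.24 CPM in control (0.44 ± 0.27, adjusted p = 0.418). Tcf7 had 3.85 and 3.49 CPM in ATO and 3.26 and 2.65 CPM in control (0.31 ± 0.27, adjusted p = 0.595).

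The readout of the canonical branch was described with 21 tested genes known as Wnt targets in various tissues, 6 of which are also members. Of the 21 targets 1 rose and 0 fell, against 2.87% and 0.859% of all genes. Their median log2 fold change was 0.15, against -0.005 over all genes. The gene that rose was Gjb6, which encodes the astrocyte gap junction protein connexin 30, with 94.1 and 83.7 CPM in ATO and 68.8 and 62.6 CPM in control (log2 0.44 ± 0.09, adjusted p = 0.0137, edgeR). Leaving out control replicate 2 (adjusted p = 0.116) or ATO replicate 1 (adjusted p = 0.110) ended that call, in a range from 0.000369 to 0.116 over 10 alternatives. An unadjusted p under 0.05 in edgeR was reached by 6 of the 21, 4 higher and 2 lower, against 18.1% of all genes. After Gjb6 the nearest to passing were Jun (log2 0.27 ± 0.07) and Neurod1 (0.37 ± 0.10), with adjusted p = 0.0593 and 0.0606 in edgeR. The feedback genes most often used as a readout had overlapping groups. Axin2 was at 31.3 and 27.2 CPM in ATO and 29.4 and 23.1 CPM in control (log2 0.16 ± 0.13, adjusted p = 0.566). Nkd1, another feedback inhibitor, had 12.0 and 10.6 CPM in ATO and 11.3 and 9.27 CPM in control (0.14 ± 0.17, adjusted p = 0.725). Notum, an enzyme that strips the lipid from Wnt proteins, had 2.70 and 1.81 CPM in ATO and 2.24 and 1.99 CPM in control (0.10 ± 0.33, adjusted p = 0.917).

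A list of 68 further tested genes of the pathway shared 3 with the targets (Apcdd1, Nkd1 and Notum). In it 2 of 68 rose and 1 fell, against 2.87% and 0.859% of all genes, and the median log2 fold change was 0.03. Sostdc1, a secreted antagonist of Wnt and BMP signals, had 231 and 318 counts in ATO, against 31 and 32 in control. It rose 7.64-fold (16.2 ± 4.16 CPM in ATO and 2.11 ± 0.0115 CPM in control, mean ± SD, n = 2 per group; log2 2.93 ± 0.23, adjusted p = 2.58e-06, edgeR) and passed in all 10 alternatives. Any part of choroid plexus cells in the Sostdc1 value was not tested. Nkd2, an inhibitor that binds Dishevelled, had 22.4 and 17.2 CPM in ATO and 13.8 and 12.8 CPM in control (log2 0.58 ± 0.15, adjusted p = 0.0479, edgeR). That call held in 4 of 10 alternatives, with adjusted p from 0.00275 to 0.476, and ended when either control or ATO replicate 1 was left out, with library size only, in DESeq2 and in limma-voom. Celsr3, a cadherin of planar cell polarity and axon guidance, fell to 128 and 107 CPM in ATO, against 153 and 185 CPM in control (log2 -0.52 ± 0.10, adjusted p = 0.0116, edgeR). Without control replicate 2 its log2 value was -0.38 and the adjusted p 0.121, the highest over 10 alternatives, and the lowest was 8.78e-06. The kinase genes Gsk3a and Gsk3b, whose products phosphorylate β-catenin, had log2 values of 0.001 and 0.03 (adjusted p = 0.996 and 0.911).

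The rises of the Wnt genes stood beside those of the choroid plexus markers in the same libraries. Relative to the control mean on a log2(CPM + 0.5) scale, the median marker stood at 3.41 in ATO replicate 1 and 3.61 in ATO replicate 2, against -0.13 in control replicate 1 and 0.11 in control replicate 2. Over the 7 markers above 1 CPM in both controls the medians were 2.84 and 3.13 in ATO and 0.04 and -0.04 in control. On that scale Mfrp was at 3.86 and 4.32 in ATO and -0.88 and 0.54 in control, and Sfrp1 at 0.86 and 1.12 in ATO and -0.46 and 0.35 in control. For both genes the order of the 4 libraries was that of the summed markers, with control replicate 1 lowest and ATO replicate 2 highest. Fzd4, Fzd7 and Sfrp5 had another order, with ATO replicate 1 above ATO replicate 2. For Fzd7 and Sfrp5 it was the order of the summed ependymal markers given below. With the groups apart few orders are possible, so a shared order cannot tell which cells a gene came from. Some of the choroid plexus markers did not share the order of their sum. Kl had 20.1 CPM in control replicate 1 and 19.1 CPM in control replicate 2. Slc13a4 had 22.6 CPM in ATO replicate 1 and 19.0 CPM in ATO replicate 2. Transthyretin (Ttr), the most abundant marker, had 39829 and 47729 counts in ATO and 301 and 933 in control. Of the 20 markers 2 had a library at 0. Markers of the ependyma, the ciliated lining of the ventricles, moved as well: 7 of 11 rose and 0 fell, 2 of the 11 having exceeded 1 CPM only in ATO, with a median log2 fold change of 1.33 and sums of 58.7 and 42.3 CPM in ATO and 20.6 and 25.0 CPM in control. Among 12 markers of the leptomeninges 1 rose (Igf2) and 1 fell (Dcn), with a median log2 fold change of 0.69. Of these 12, 8 had an unadjusted p under 0.05 in edgeR, 7 higher and 1 lower, against 18.1% of all genes. The 12 summed to 184 and 119 CPM in ATO and 146 and 110.4 CPM in control. Dcn, the marker that fell, gave 44.3 and 39.6 CPM of this in ATO and 57.7 and 65.9 CPM in control. Of 11 markers of thalamus and habenula, where Tcf7l2 is abundant, 1 rose (Zic1) and 0 fell, with 5 log2 values positive and 6 negative. Zic1 was at log2 0.85 ± 0.18, and Slc17a6, which did not pass, at -0.85 ± 0.23 (adjusted p = 0.0575, edgeR). The list summed to 226 and 206 CPM in ATO and 209 and 201 CPM in control. Among the 15 hippocampal neuron markers 1 rose (Trpc6) and 1 fell (Wfs1), and 8 had an unadjusted p under 0.05 in edgeR. Of these 4 were higher and 4 lower, where 18.1% of all genes had such a p. Over all genes 2.87% rose and 0.859% fell. The part of any of these cells or regions in the Wnt values was not tested.

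**Figure D5:**
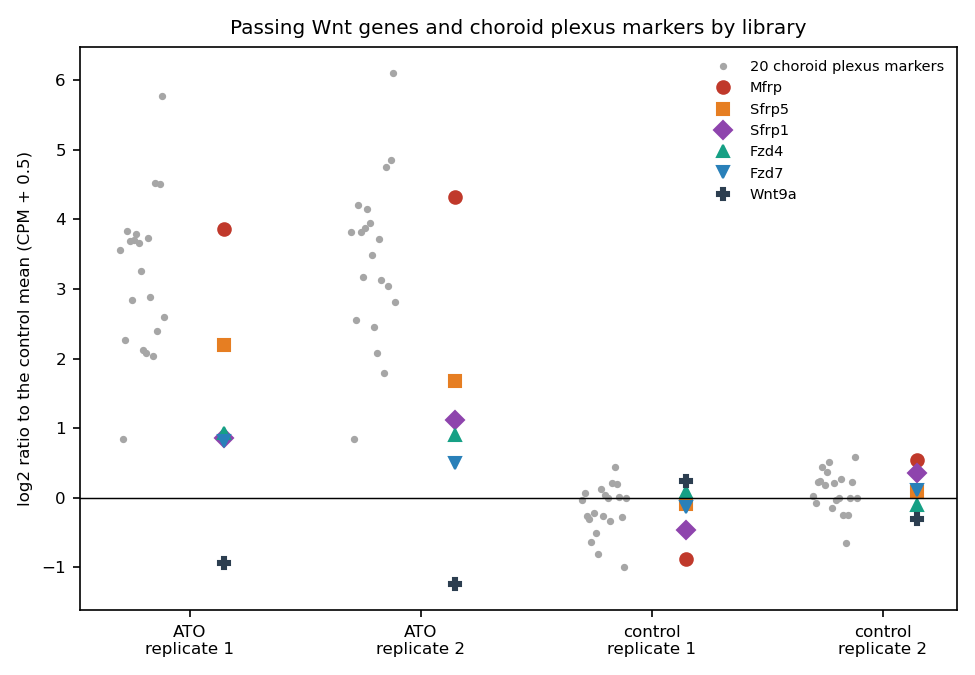
Log2 ratio of each library to the control mean (CPM + 0.5) for the 6 Wnt genes that passed (coloured symbols) and 20 choroid plexus markers (grey), with the ATO libraries on the left. Mfrp lies among the markers in ATO at 3.86 and 4.32, Fzd4 lower at 0.93 and 0.91, and Wnt9a below 0 at -0.94 and -1.24.

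Promoter sequence was read to see whether members hold the TCF/LEF motif of canonical Wnt targets. RefSeq promoters of GRCm38.p6, from 250 bases before to 50 bases after each start site, were held for 29 of the 48 members, 5 of the 6 that passed among them. The TCF/LEF motif was searched as CTTTGAT and CTTTGAA on both strands. It occurred in 8.65% of all 32851 promoters and in 2 of the 38 promoters of members, those of Mfrp and Wnt5b. In Mfrp it began 34 bases after the start site (chr9:44101790-44101819, plus strand), and in Wnt5b 71 bases before it (chr6:119449440-119449469, minus strand). The 30 bases around each match are shown 5′ to 3′ with the motif in capitals.
Mfrp: gcaaaggccgcctCTTTGATtggtggcttg
Wnt5b: gagtaagtctctCTTTGATctgctccctgt
Wnt5b itself had 1.84 and 1.87 CPM in ATO and 2.92 and 2.45 CPM in control (log2 -0.53 ± 0.31, adjusted p = 0.400).

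The 120 bases before the annotated start (the more upstream of the RefSeq and GENCODE starts) are shown for the 2 genes with the largest log2 rise and for the gene that fell, as they differ in base composition: Mfrp (chr9:44101609-44101728, plus strand), Sfrp5 (chr19:42202253-42202372, minus strand) and Wnt9a (chr11:59306808-59306927, plus strand). None of the 3 stretches held the motif, which says only that these letters were not in these windows.
Mfrp: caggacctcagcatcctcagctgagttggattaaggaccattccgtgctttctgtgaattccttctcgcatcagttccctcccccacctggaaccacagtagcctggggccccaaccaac
Sfrp5: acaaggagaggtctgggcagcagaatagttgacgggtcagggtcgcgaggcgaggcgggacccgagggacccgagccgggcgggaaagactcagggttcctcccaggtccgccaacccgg
Wnt9a: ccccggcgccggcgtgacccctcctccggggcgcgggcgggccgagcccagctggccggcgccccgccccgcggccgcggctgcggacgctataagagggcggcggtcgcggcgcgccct
The share of G and C was 55.8% for Mfrp, 68.3% for Sfrp5 and 85.8% for Wnt9a, against a median of 54.2% over all promoters. The dinucleotide CG occurred 2 times in the Mfrp stretch, 11 times in that of Sfrp5 and 24 times in that of Wnt9a.

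The authors' deposited table gave adjusted p under 0.05 for the same 6 members. It marked 4 of them as differentially expressed, Mfrp, Sfrp1, Sfrp5 and Wnt9a, among 153 marked genes.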

How the data were processed

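RNA from 4 hippocampus samples, 2 ATO and 2 control, was sequenced from messenger RNA libraries made with an Illumina TruSeq kit, per the labels' protocols. The submitters' processing notes name HISAT2 2.0.1, HTSeq 0.6.1, cutadapt 1.9.1, FastQC 0.10.1, limma 3.47.15, R 4.1.0 and build GRCm38. The sources used here do not give their roles, their settings or the strand of counting. Without strand, reads of overlapping genes cannot be told apart. Per the file headers, the authors deposited the count of reads and the FPKM per gene and library, a log2 fold change of ATO over control, and a p-value and adjusted p-value. The deposited FPKM followed counts divided by length and library total, and were used only for levels between genes.

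In R 4.3.3, edgeR 4.0.16 tested the counts of all 15713 genes (quasi-likelihood test without covariate; TMM factors; filterByExpr, which removed 0 genes), with Benjamini-Hochberg adjustment over all genes. A gene with an adjusted p under 0.05 passed, rose or fell. The SE is the log2 fold change divided by the square root of F. Normalised CPM use TMM-scaled totals. Before that scaling 1 count is 0.0580 to 0.0674 CPM. Alternatives were library size only, DESeq2 1.42.0, limma-voom (limma 3.58.1), no filter, a mean of at least 5 CPM, the replicate number as block, and each library left out. The fits were tested on simulated data. Positions are from GENCODE vM21 (GRCm38).

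The members and the lists of targets, pathway genes and markers were chosen with earlier results of these data known, so they are not independent evidence. Genes named with full values are the members that passed, those with an unadjusted p under 0.05 or a call that an alternative changed, the 2 with the highest FPKM of each role, and list genes that passed; others were named after their values were seen. The labels do not say that replicates are separate animals, and a p-value here covers only the spread among the samples at hand, which may be technical. The replicate numbers pair nothing in the labels.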

Additional observations from a re-analysis of the deposited data

How the results depend on the processing

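Of the 6 Wnt genes that passed, 5 did so with library size only and 4 in DESeq2 (3 higher). A filter at a mean of 5 CPM left 3 higher, since Sfrp1 and Sfrp5 were not tested there. With 1 library left out, 4 to 5 members rose and 1 to 2 fell, but without control replicate 1 only 3 of the 6 passed and the gene that fell was Wnt2b. The members' median log2 fold change was 0.0327 with the 5 CPM filter and 0.0111 to 0.0437 with a library left out. Omitting the filter changed nothing, as it removed 0 genes. Over the whole table, where 586 genes passed, DESeq2 called 316, and leaving out a library gave 222 (without control replicate 2) to 611. With a library left out, 0 to 2 targets passed, and 0 without control replicate 2 or ATO replicate 1. The other pathway genes gave 1 to 4, the ependyma 3 to 9, the leptomeninges 0 to 10, the endothelium 1 to 2, thalamus and habenula 0 to 2 and the hippocampal neurons 1 to 5. DESeq2 called 3 ependymal and 1 hippocampal neuron markers, library size only 1 hippocampal neuron marker, and the 5 CPM filter 1 ependymal marker. Markers with a mean under 5 CPM were not tested with that filter. All 20 choroid plexus markers passed in each alternative except that filter, where 16 did.

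The sign turned for 17 of the 48 members when a library was left out, and for 0 with all libraries kept. None of the 17 passed in any fit, and their log2 values were at most 0.20 in size. Among those named with full values, they ran with a library left out from -0.0622 to 0.114 for Ctnnb1, -0.283 to 0.0543 for Dkk3, -0.242 to 0.102 for Fzd3, -0.00895 to 0.0519 for Lgr4, -0.0712 to 0.148 for Wnt7a and -0.104 to 0.323 for Wnt7b. The cause was not tested.

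The labels tie no samples together by replicate number, and deviations of equally numbered samples correlated at 0.0877. With the replicate number as a block 1366 genes passed, among them 7 members higher and 3 lower (adding Lrp5, Lrp6, Rspo2 and Wnt2b), 3 targets, 9 other pathway genes, 9 leptomeningeal, 4 endothelial, 2 thalamic and 7 hippocampal neuron markers. Depth limits the 18 members with a mean under 5 CPM, and 2 libraries per group limit all.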

Other observations

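Of the Norrin signalling genes described here Fzd4 passed, and Lrp5, Ndp and Tspan12 did not. Ndp, which encodes Norrin, had 5.86 and 6.14 CPM in ATO and 6.78 and 7.28 CPM in control (log2 -0.23 ± 0.20, adjusted p = 0.593, edgeR). Tspan12, the tetraspanin partner of FZD4, had 20.7 and 21.3 CPM in ATO and 22.0 and 21.9 CPM in control (-0.07 ± 0.11, adjusted p = 0.812). Adgra2 and Reck, which serve WNT7 signalling to brain vessels, were at 0.30 ± 0.15 and -0.30 ± 0.16 (adjusted p = 0.330 and 0.366).

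Of the genes of planar cell polarity only Celsr3 passed in edgeR among those tested here. Its relatives Celsr2 and Celsr1 were at log2 -0.04 ± 0.08 and -0.06 ± 0.21. Celsr2 had 175 and 187 CPM in ATO and 179.6 and 193 CPM in control. Prickle2, an abundant partner gene, had 300.5 and 294 CPM in ATO and 291 and 266 CPM in control (0.09 ± 0.08, adjusted p = 0.567). Vangl2 was at -0.19 ± 0.16 and Vangl1 at 0.32 ± 0.25 (adjusted p = 0.597 and 0.550).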
